A study of Homo sapiens with 14 samples.

Results

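The positions described here are C-to-U edit sites that lie outside every annotated gene. They were taken from 14 libraries by a rule that used only their place in hg38: a site on chr1 to chr22 or chrX that no Gencode 44 gene span covers on either strand. They came to 8524 distinct positions of the 357284 positions called in all, and to 9645 site calls of 386343 when each library is counted on its own. Of the 8524 positions, 2651 lay within 5000 nt past the end of a gene on that gene's strand and are called downstream, and the other 5873 are called the rest. All libraries came from HEK293T cells, an immortalized line of embryonic kidney origin that the sample labels also write as HEK293XT, fixed in methanol. In the RBFOX2 libraries, cells were incubated with an antibody to RBFOX2 and then with APO1-Nb, the deaminase APOBEC1 fused to a nanobody that binds rabbit antibodies (INSCRIBE). Enzyme-only cells received APO1-Nb and no antibody, and Buffer-only cells received neither. Libraries were made with a low-input kit from 1 ng or 100 pg of total RNA, and each input had 3 RBFOX2 libraries, 1 Enzyme-only library and 3 Buffer-only libraries. The methods place replicates on separate slides of 1 line, so p-values measure only the spread between these slides. Nothing says that the kit preserves strand, so strand here means that of the called site. Over all libraries, 253659 calls lay on the strand of a gene and 123039 inside genes only on the opposite strand. Every comparison between strands below rests on the called strand.

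APOBEC1 deaminates cytosine and prefers a C that follows A or U, and RBFOX2 is a splicing regulator that binds UGCAUG. RNA polymerase II transcribes beyond the site at which an mRNA is cut and polyadenylated, and the RNA made past that site is normally degraded. Cells can also cut at a more distant site, which leaves a longer 3' end than the annotated one. Processed pseudogenes are copies of mRNAs that were reverse transcribed back into the genome, and an annotated pseudogene can be shorter than the copied mRNA, so that part of the copy lies past its annotated end.

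The downstream sites named below lay in different kinds of sequence: sequence past protein-coding ends with no match to another transcript, and copies of other mRNAs past pseudogene ends. The first kind is shown by windows of 200 nt past the ends of ZC3HAV1L (hg38 chr7:139021828-139022027, minus strand, 3679 to 3878 nt past the end) and of ZNF714, a zinc finger gene (hg38 chr19:21125810-21126009, plus strand, 540 to 739 nt past the end), the protein-coding ends with the most sites at 1 ng. Each is given 5' to 3' from the hg38 reference with every edited C in capitals. The windows were placed where the most distinct cytosines were edited past that end, so their counts are not typical of the sequence there. In the ZC3HAV1L window 7 of 23 cytosines were edited in some library, 6 of them after A or U. The calls in it were 6 with RBFOX2 and 1 with Buffer-only. In the ZNF714 window 5 of 36 cytosines were edited, all 5 after A or U, with 6 calls in RBFOX2 and 1 in Enzyme-only.
ZC3HAV1L: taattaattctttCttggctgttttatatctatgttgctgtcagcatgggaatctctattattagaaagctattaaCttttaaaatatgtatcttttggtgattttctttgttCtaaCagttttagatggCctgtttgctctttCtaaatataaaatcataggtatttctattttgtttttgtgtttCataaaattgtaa
ZNF714: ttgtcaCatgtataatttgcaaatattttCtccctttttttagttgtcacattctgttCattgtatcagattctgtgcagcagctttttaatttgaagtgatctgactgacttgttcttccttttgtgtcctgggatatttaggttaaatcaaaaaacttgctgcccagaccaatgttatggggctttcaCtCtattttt

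The second kind is shown by windows of 29 nt around 1 edited C past each of 4 pseudogene ends. They lie at hg38 chr1:146301382-146301410 (plus strand, 2681 nt past the end of NUDT4P2), chr3:155988782-155988810 (plus, 620 nt past SETP14), chr11:127940821-127940849 (minus, 78 nt past DNAJB6P1) and chr6:34220106-34220134 (plus, 54 nt past CYCSP55). Capitals mark the edited C and, past NUDT4P2, the UGCAUG motif that directly follows it. The 101 nt around each of these positions matched an annotated mRNA of NUDT4, SET, DNAJB6 or CYCS. Identity was 99.01% for SET and 100% for the other 3, and the mRNA has C at the edited place in each case. The C shown past SETP14, DNAJB6P1 and CYCSP55 was edited in Buffer-only libraries as well. The DNAJB6P1 position was called in RBFOX2 replicates 1 and 3 at 1 ng and in Buffer-only replicate 1 at 100 pg. That Buffer-only library held 13 of its 18 edited reads. At 100 pg the CYCSP55 position had 7 edited reads in RBFOX2 replicate 2 and 12 in Buffer-only replicate 3. At 1 ng it had 9 in Enzyme-only and 6 in Buffer-only replicate 3, of 34 in all.
NUDT4P2: aagtagaaactgtgCTGCATGatgttatt
SETP14: tatttgacagacatCcttgcagtttaaga
DNAJB6P1: tcaaacgaactcgaCtttcagtataattg
CYCSP55: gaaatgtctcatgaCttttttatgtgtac

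In the rest, the sequences shown are the position called in all 3 RBFOX2 libraries and in no other library at 1 ng (chr21:6732985-6733091, minus strand), a position near UGCAUG called in 2 RBFOX2 libraries and nowhere else (chr7:152892851-152892957, plus strand), and 3 of the 7 positions called in all 14 libraries (chr21:9042813-9042919, plus, chr5:14651593-14651699, plus, and chr14:98972771-98972877, plus). Each window has 53 nt of hg38 on both sides of the edited C, which is in capitals with any UGCAUG, written TGCATG in genomic letters. The chr7 position was chosen after its values were seen. Another position of the rest near UGCAUG, chr11:118992919 on the plus strand, is not shown. At 1 ng it was called in 2 RBFOX2 libraries (8 of 21 reads), in Enzyme-only (1 of 7 reads) and in no Buffer-only library. At 100 pg it was called in 1 Buffer-only library, in 10 of 21 reads.
chr21 minus, RBFOX2 only: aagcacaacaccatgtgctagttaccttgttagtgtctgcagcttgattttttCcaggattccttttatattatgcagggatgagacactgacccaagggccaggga
chr7 plus, near the motif: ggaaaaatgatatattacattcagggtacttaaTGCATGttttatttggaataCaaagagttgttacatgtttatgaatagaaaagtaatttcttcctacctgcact
chr21 plus, all libraries: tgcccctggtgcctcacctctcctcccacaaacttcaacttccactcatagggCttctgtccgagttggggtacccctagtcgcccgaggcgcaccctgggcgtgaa
chr5 plus, all libraries: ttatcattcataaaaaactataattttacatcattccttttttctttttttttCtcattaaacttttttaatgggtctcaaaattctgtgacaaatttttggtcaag
chr14 plus, all libraries: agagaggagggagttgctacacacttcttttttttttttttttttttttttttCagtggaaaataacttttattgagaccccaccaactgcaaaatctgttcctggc

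Depth of the tables set the scale. Libraries at 1 ng held 39399, 41376 and 41727 sites with RBFOX2, 37202 with Enzyme-only, and 19785, 21930 and 21795 with Buffer-only. At 100 pg they held 25976, 26858 and 26789 sites with RBFOX2, 24322 with Enzyme-only, and 20655, 20315 and 18214 with Buffer-only. RBFOX2 libraries thus held 1.93-fold more sites than Buffer-only libraries at 1 ng and 1.35-fold more at 100 pg. Total read depth per library is not used here. LIN28B, PAX2, NEFM and VIM were taken as genes of the HEK293 line, not as particular to it, and are given only as a sum. Their gene-strand sites summed to 15, 20 and 15 in RBFOX2, 10 in Enzyme-only and 1, 5 and 4 in Buffer-only libraries at 1 ng. The 5 markers of liver, blood, fibroblasts, erythroid cells and glia had none at that input. At 100 pg the HEK293 genes had 6, 6 and 4 in RBFOX2, 5 in Enzyme-only and 1, 9 and 5 in Buffer-only libraries, which overlap. The 5 markers of other cell types had 1, 0 and 1 in RBFOX2, 1 in Enzyme-only and none in Buffer-only libraries at that input. Neither list had a site past a gene end.

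Sites outside genes were a small part of each library. At 1 ng there were 698, 774 and 753 of them in RBFOX2 libraries, 842 in the Enzyme-only library, and 436, 546 and 551 in Buffer-only libraries. Each RBFOX2 library held more than any Buffer-only library (742 ± 39.2 against 511 ± 65.0, SD, n = 3 each, exact permutation p = 0.1, two-sided as in every such test here, and the smallest that 3 against 3 can give). The Enzyme-only library lay above all of them. With 100 pg there were 709, 833 and 798 in RBFOX2, 691 in Enzyme-only, and 724, 693 and 597 in Buffer-only libraries, and these overlap (exact permutation p = 0.2). As a share of all sites, those outside genes were fewer in RBFOX2 libraries: 1.82 ± 0.05% against 2.41 ± 0.18% in Buffer-only libraries at 1 ng, with 2.26% in Enzyme-only, and 2.94 ± 0.19% against 3.40 ± 0.11% at 100 pg, with 2.84% in Enzyme-only (n = 3 each, exact permutation p = 0.1 at each input).

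Sites downstream of gene ends were more numerous with enzyme present than without it. At 1 ng they numbered 256, 301 and 289 in RBFOX2 libraries, 272 in Enzyme-only, and 101, 148 and 145 in Buffer-only libraries. RBFOX2 exceeded Buffer-only 2.15-fold (282 ± 23.3 against 131 ± 26.3, n = 3 each, exact permutation p = 0.1), and the Enzyme-only library was within the RBFOX2 range at 2.07-fold. At 100 pg the counts were 219, 254 and 231 in RBFOX2, 192 in Enzyme-only, and 180, 167 and 129 in Buffer-only libraries, 1.48-fold higher with RBFOX2 and again without overlap (235 ± 17.8 against 159 ± 26.5, n = 3 each, exact permutation p = 0.1). The difference was 74.7 sites larger at 1 ng than at 100 pg (exact permutation within inputs, p = 0.36, and 0.41 adjusted over 4 such measures), and turned to −57.7 when edited reads were counted. Libraries of both inputs may come from the same RNA, which this test does not take into account, so the inputs may not be independent. At a SAILOR score of 0.99 or more RBFOX2 exceeded Buffer-only by 47.3 sites at 1 ng, against 150.7 over all scores, and by 45.7, against 76.0, at 100 pg.

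These folds were close to those of all sites, and the share of all sites that lay downstream overlapped between groups. It was 0.69 ± 0.04% with RBFOX2, 0.73% with Enzyme-only and 0.62 ± 0.09% with Buffer-only at 1 ng (n = 3, exact permutation p = 0.3), and 0.88 ± 0.05% with RBFOX2, 0.79% with Enzyme-only and 0.80 ± 0.08% with Buffer-only at 100 pg (exact permutation p = 0.3). The sign of this small difference at 1 ng turned with other choices, to −0.0073 percentage points with a window of 10000 nt and −0.015 without the transcript copies described further on.

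The rest differed less. It held 442, 473 and 464 sites in RBFOX2, 570 in Enzyme-only and 335, 398 and 406 in Buffer-only libraries at 1 ng, 1.21-fold higher with RBFOX2 (n = 3 each, exact permutation p = 0.1). At 100 pg it held 490, 579 and 567 sites in RBFOX2, 499 in Enzyme-only and 544, 526 and 468 in Buffer-only libraries, which overlap (1.06-fold, exact permutation p = 0.5). Sites in the rest more than 5000 nt from any gene followed the same order, with 241, 266 and 268 in RBFOX2, 342 in Enzyme-only and 173, 212 and 218 in Buffer-only libraries at 1 ng. The downstream share of the sites outside genes was therefore higher with RBFOX2: 38.0 ± 1.16% against 25.5 ± 2.09% at 1 ng and 30.1 ± 1.03% against 23.5 ± 1.70% at 100 pg, without overlap (n = 3 each, exact permutation p = 0.1 at each input). Enzyme-only lay between the groups, at 32.3% with 1 ng and 27.8% with 100 pg. With protein-coding and lncRNA genes alone as annotation, the RBFOX2 minus Buffer-only difference in this share fell to 4.86 percentage points, against 12.5 with all genes, at 1 ng, and to 1.81, against 6.59, at 100 pg.

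**Figure D1:**
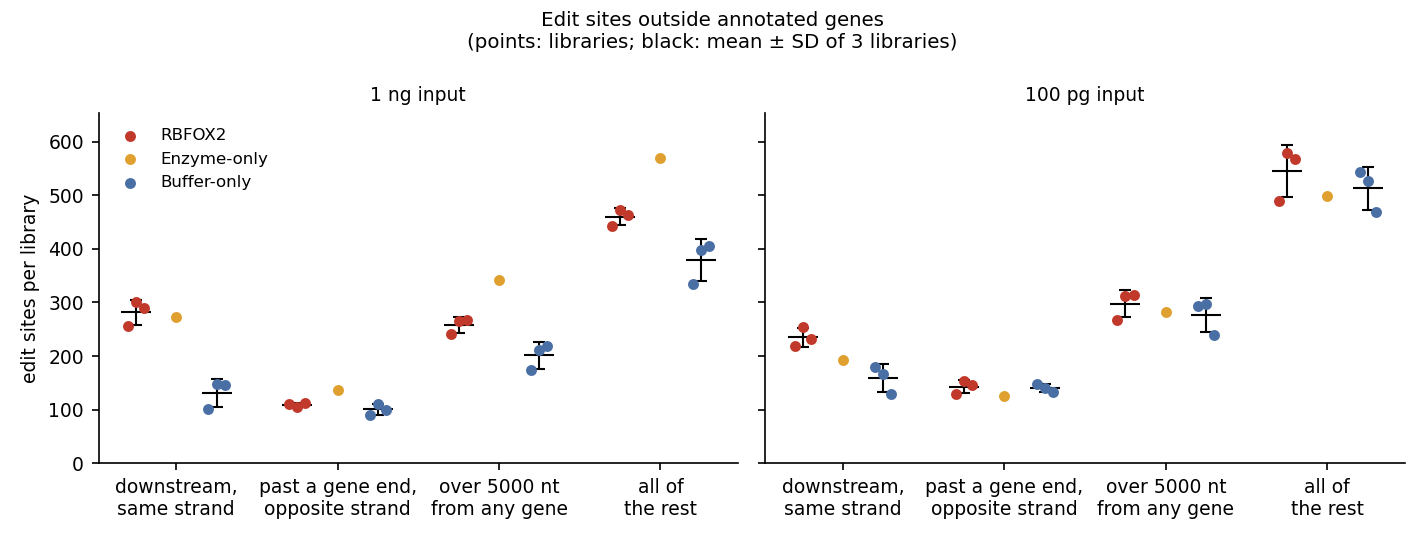
Edit sites per library (y axis) by place relative to genes (x axis), for 1 ng and 100 pg input. Each point is 1 library, and bars give the mean ± SD of 3. Downstream of gene ends on the same strand, RBFOX2 libraries held 256 to 301 sites at 1 ng, above the 101 to 148 of Buffer-only libraries, while past gene ends on the opposite strand the groups overlapped.

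The same stretches read on the other strand gave a reference for this difference. Sites within 5000 nt past a gene end but on the strand opposite to that gene, leaving out sites that are also downstream of a gene on their own strand, numbered 110, 104 and 112 in RBFOX2, 137 in Enzyme-only and 90, 111 and 100 in Buffer-only libraries at 1 ng (exact permutation p = 0.3). At 100 pg they numbered 130, 153 and 145 in RBFOX2, 125 in Enzyme-only and 147, 141 and 132 in Buffer-only libraries (exact permutation p = 0.8). The groups overlap at both inputs.

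Sites were denser downstream than in the rest. Downstream sequence makes up 140 Mb, or 6.13% of the length outside genes, against 2146 Mb for the rest. Sites per Mb were 8.88, 9.75 and 9.54 times as dense downstream as in the rest in RBFOX2 libraries at 1 ng, 7.31 times in Enzyme-only and 4.62, 5.70 and 5.47 times in Buffer-only libraries. At 100 pg the ratios were 6.85, 6.72 and 6.24 in RBFOX2, 5.90 in Enzyme-only and 5.07, 4.87 and 4.22 in Buffer-only libraries. Set against the opposite strand past gene ends, Buffer-only libraries, which saw no enzyme, had 0.721, 1.06 and 1.04 sites per Mb downstream and 0.739, 0.912 and 0.821 on the opposite strand at 1 ng, which overlap. RBFOX2 libraries had 1.83, 2.15 and 2.06 downstream and 0.903, 0.854 and 0.920 on the opposite strand, and the Enzyme-only library 1.94 and 1.13.

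By distance, sites per kb on the gene's strand were lower in each bin farther from the gene end, in all groups at both inputs. On the opposite strand they were also lower in the farthest bin than in the nearest, in all groups at both inputs. These are sites per kb of distance, and the length of sequence outside genes in each bin was not taken into account. In the first 500 nt there were 68, 77 and 79 sites in RBFOX2, 75 in Enzyme-only and 23, 43 and 29 in Buffer-only libraries at 1 ng, a ratio of 2.36. From 1000 to 2000 nt there were 67, 82 and 62 in RBFOX2, 71 in Enzyme-only and 15, 24 and 26 in Buffer-only libraries, a ratio of 3.25. The ratio was 2.48 from 500 to 1000 nt and 1.52 from 2000 to 5000 nt, and in all 4 bins the RBFOX2 libraries lay above the Buffer-only ones at 1 ng (exact permutation p = 0.1 each, 0.16 after Benjamini-Hochberg adjustment over the 8 bins of that input, both strands included). At 100 pg the ratios were 1.68, 2.06, 1.44 and 1.2 with growing distance, and the groups were apart only in the first 2 bins. On the opposite strand, the first 500 nt held fewer sites with RBFOX2 than with Buffer-only: 23 ± 2 against 28 ± 3.46 at 1 ng and 34.3 ± 3.06 against 41.7 ± 2.52 at 100 pg, with 37 and 30 in the Enzyme-only libraries (n = 3 each, exact permutation p = 0.1 each). At 100 pg this RBFOX2 minus Buffer-only difference turned to 3 at a SAILOR score of 0.99 or more and to 6.33 in edited reads.

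**Figure D2:**
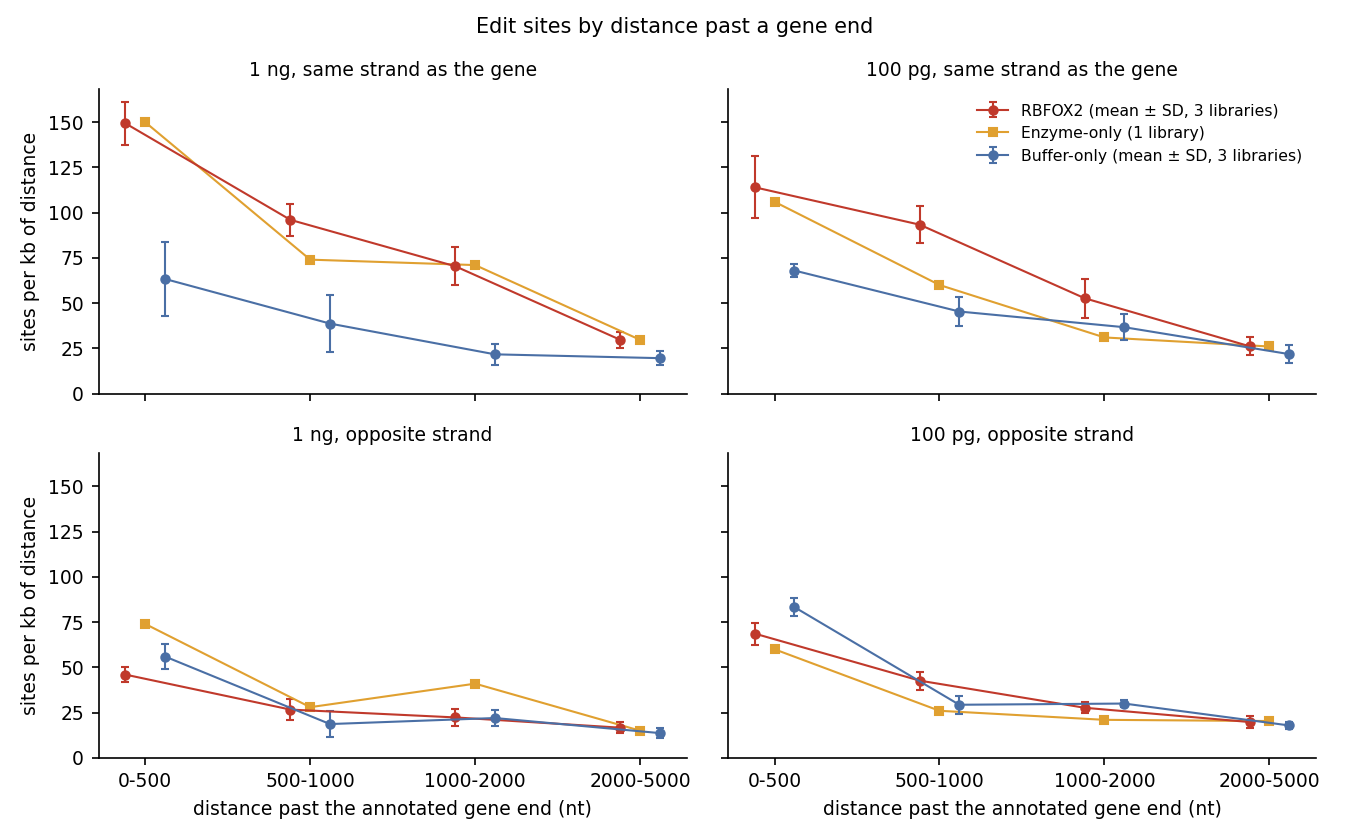
Sites per kb of distance (y axis) in 4 bins of distance past the annotated gene end in nt (x axis), on the strand of the gene (top) and on the opposite strand (bottom). Circles are means ± SD of 3 RBFOX2 or 3 Buffer-only libraries and squares the single Enzyme-only library. On the gene's strand at 1 ng the RBFOX2 to Buffer-only ratio was 2.36, 2.48, 3.25 and 1.52 from the nearest to the farthest bin.

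The base before the edited C set the enzyme-treated libraries apart downstream at 1 ng. At 1 ng, 77.3, 77.4 and 80.6% of downstream sites in RBFOX2 libraries had A or U before the C, against 57.4, 56.1 and 54.5% in Buffer-only libraries (78.5 ± 1.87% against 56.0 ± 1.47%, n = 3 each, exact permutation p = 0.1). The Enzyme-only library had 72.8% (95% Wilson interval 67.2 to 77.7%, which like every such interval here covers counting error only). Of all genomic cytosines in the downstream windows, 51.0% follow A or U, so Buffer-only sites lay near that share. With 100 pg the shares were 66.2, 54.7 and 61.0% in RBFOX2, 59.9% in Enzyme-only and 52.2, 50.9 and 55.0% in Buffer-only libraries, where RBFOX2 replicate 2 fell within the Buffer-only range (exact permutation p = 0.2). RBFOX2 libraries at 1 ng held on average 150.7 downstream sites more than Buffer-only libraries in all, and 148 more after A or U. The differences of the means at 100 pg were 76.0 sites in all and 58.3 after A or U.

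At 1 ng the downstream context of the enzyme-treated libraries was close to that inside genes. Sites on the gene strand of genes followed A or U in 76.7 ± 0.37% with RBFOX2, 72.7% with Enzyme-only and 47.9 ± 0.69% with Buffer-only at 1 ng. The downstream share minus the gene-strand share of the same library was 1.77 ± 1.84 percentage points with RBFOX2 and 0.13 with Enzyme-only, against 8.09 ± 2.12 with Buffer-only, a comparison chosen after the data were seen (n = 3 each, exact permutation p = 0.1). With 100 pg the difference was −4.65 ± 6.06 points with RBFOX2, where single libraries ran as low as −11.0, −0.07 with Enzyme-only and 5.19 ± 1.72 with Buffer-only (n = 3 each, exact permutation p = 0.1). In the rest the shares were 66.6 ± 2.71% with RBFOX2, 63.9% with Enzyme-only and 58.4 ± 4.33% with Buffer-only at 1 ng (exact permutation p = 0.1), beside 55.5% of genomic cytosines there. The rest at 100 pg gave 56.2 ± 1.29% with RBFOX2, 59.3% with Enzyme-only and 55.2 ± 0.93% with Buffer-only, and RBFOX2 and Buffer-only overlapped (n = 3 each, exact permutation p = 0.4).

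**Figure D3:**
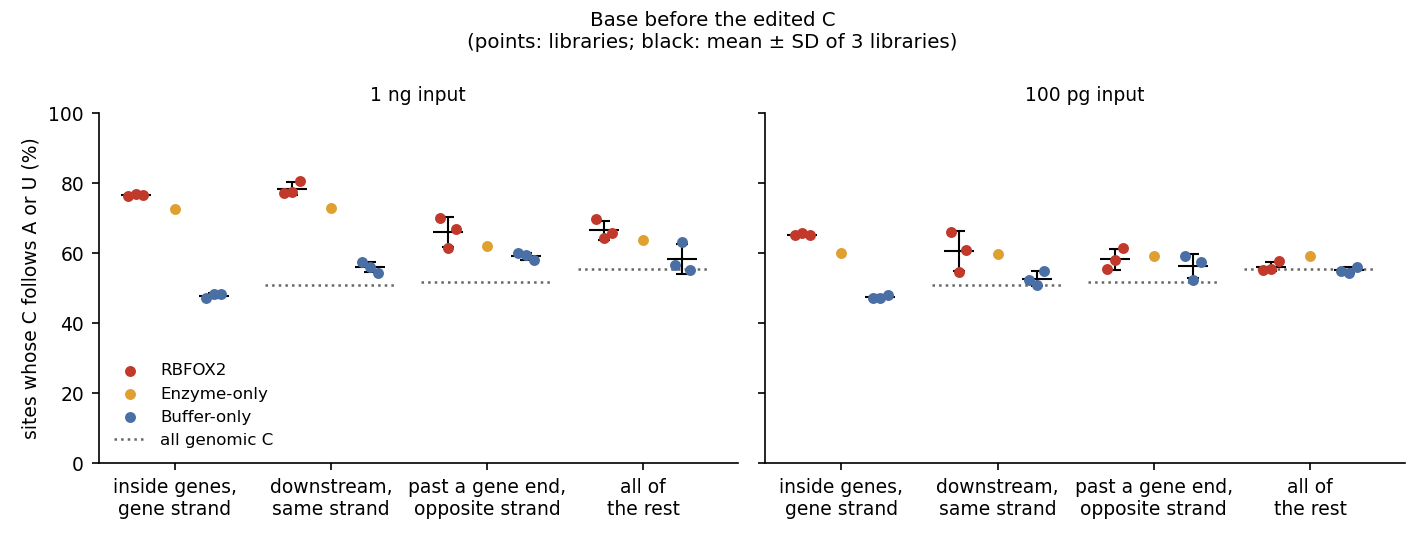
Percent of sites whose edited C follows A or U (y axis) inside genes and in the classes outside genes (x axis), at 1 ng and 100 pg. Each point is 1 library, bars give the mean ± SD of 3, and dotted lines the share of all genomic cytosines of that class. Downstream at 1 ng the RBFOX2 libraries had 77.3 to 80.6%, against 54.5 to 57.4% in Buffer-only libraries.

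UGCAUG lay near few sites outside genes. A motif was counted within 50 nt on the site's strand. Downstream at 1 ng, 19, 16 and 16 sites in RBFOX2, 13 in Enzyme-only and 3, 6 and 3 in Buffer-only libraries had one, which is 6.09 ± 1.16%, 4.78% (95% Wilson interval 2.81 to 8%) and 3.03 ± 0.99% of sites (n = 3, exact permutation p = 0.1). The RBFOX2 minus Buffer-only difference of 3.06 percentage points became 6.22 within 100 nt (exact permutation p = 0.1), and the groups overlapped at 1.7 within 25 nt (p = 0.2), at 2 with coverage of 10 or more (p = 0.5) and at 2.39 without RBFOX2 replicate 1 (p = 0.2). The genomic share was 2.80% of downstream cytosines. At 100 pg, 9, 17 and 8 sites in RBFOX2, 9 in Enzyme-only and 7, 4 and 6 in Buffer-only libraries had a motif, and the shares overlapped (exact permutation p = 0.5). In the rest the share at 1 ng was 4.58 ± 0.38% with RBFOX2, 3.51% with Enzyme-only and 2.73 ± 0.87% with Buffer-only (n = 3 each, exact permutation p = 0.1), beside 2.76% of genomic cytosines. On the gene strand of genes, the Enzyme-only share was 2.86% against 6.09 ± 0.18% with RBFOX2 and 2.47 ± 0.15% with Buffer-only. Downstream, with 1 Enzyme-only library and 13 sites, its interval spans both the RBFOX2 and the Buffer-only mean.

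Sites outside genes were shallow and rarely edited in many reads. Median coverage downstream was 9, 10 and 11 reads in RBFOX2, 9 in Enzyme-only and 10, 9 and 9 in Buffer-only libraries at 1 ng. At 100 pg it was 12, 13 and 14 reads in RBFOX2, 12.5 in Enzyme-only and 10, 11 and 11 in Buffer-only libraries. A single edited read supported 58.6, 61.5 and 58.5% of downstream sites in RBFOX2 libraries, 60.3% in Enzyme-only and 58.4, 69.6 and 63.4% in Buffer-only libraries at 1 ng. At 100 pg these shares were 53, 57.1 and 63.6% in RBFOX2, 63.5% in Enzyme-only and 77.8, 68.9 and 75.2% in Buffer-only libraries, without overlap between RBFOX2 and Buffer-only (exact permutation p = 0.1). The median edit fraction downstream was 12.5 to 14.3% in RBFOX2 libraries and 14.3% in every other library at 1 ng.

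More of the downstream sites in enzyme-treated libraries had a close neighbour, a measure added after the data were seen. This share can rise with the number of sites in a library alone. RBFOX2 libraries held more downstream sites (282 against 131 on average at 1 ng), and site numbers were not matched between groups. At 1 ng, 26.2, 24.3 and 29.8% of them had another site of the same library within 100 nt in RBFOX2, 21.3% in Enzyme-only and 3.96, 14.9 and 5.52% in Buffer-only libraries. At 100 pg the shares were 16.9, 15 and 20.3% in RBFOX2, 14.6% in Enzyme-only and 5.56, 3.59 and 6.20% in Buffer-only libraries. The RBFOX2 and Buffer-only groups did not overlap at either input (exact permutation p = 0.1 each), whereas in the rest they overlapped at 1 ng, at 11.0 ± 1.07% and 10.5 ± 0.88% (n = 3 each, exact permutation p = 0.5), and the Enzyme-only library was higher at 15.4%. Edit clusters called by FLARE almost never lay wholly outside genes: 0 to 3 per library downstream and 0 to 4 in the rest, of 8852 to 24697 clusters in a library. Of the deposited clusters shared by all 3 replicates, 1 of 903 with RBFOX2 and 0 of 246 with Buffer-only lay wholly outside genes at 1 ng, and 0 of 265 with RBFOX2 and 0 of 100 with Buffer-only at 100 pg. It is not stated whether FLARE searched sequence outside annotated genes as it did genes. The cluster counts therefore give no measure of how sites outside genes cluster.

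Most downstream sites lay past protein-coding and pseudogene ends. Past protein-coding ends there were 123, 153 and 144 sites in RBFOX2, 148 in Enzyme-only and 40, 83 and 84 in Buffer-only libraries at 1 ng, a ratio of 2.03. Past pseudogene ends there were 89, 77 and 97 in RBFOX2, 65 in Enzyme-only and 25, 29 and 30 in Buffer-only libraries, a ratio of 3.13. Past ends of long noncoding RNA (lncRNA) genes there were 35, 63 and 38 in RBFOX2, 51 in Enzyme-only and 30, 31 and 24 in Buffer-only libraries, a ratio of 1.60. RBFOX2 and Buffer-only did not overlap in any of the 3 kinds at 1 ng (exact permutation p = 0.1 each). The ratios at 100 pg were 1.40, 2.04 and 1.08 in the same order, and the lncRNA counts overlapped. Whether the ratios differ between kinds of gene was not tested.

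Many sites past protein-coding ends followed a gene that also had sites inside it, a comparison made after the data were seen. At 1 ng, 98 of 123, 115 of 153 and 100 of 144 sites in RBFOX2, 107 of 148 in Enzyme-only and 19 of 40, 41 of 83 and 45 of 84 in Buffer-only libraries followed a gene with a gene-strand site in the same library. Of all 19970 protein-coding genes, 38.5 to 38.9% had such a site in RBFOX2 libraries, 37.7% in Enzyme-only and 27.0 to 28.4% in Buffer-only libraries. With 100 pg these sites numbered 70 of 116, 84 of 136 and 72 of 111 in RBFOX2, 67 of 105 in Enzyme-only and 50 of 102, 49 of 96 and 26 of 62 in Buffer-only libraries.

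Past pseudogene ends, most sites lay in copies of other transcripts, which was also looked for after the data were seen. A position counted as a copy where at least 90 of the 101 nt around it matched an annotated transcript on the same strand at 95% identity or more. Of the sites past pseudogene ends, 80, 58 and 76 in RBFOX2, 49 in Enzyme-only and 17, 20 and 18 in Buffer-only libraries lay in a copy at 1 ng, a ratio of 3.89 (exact permutation p = 0.1). Outside copies they numbered 9, 19 and 21 in RBFOX2, 16 in Enzyme-only and 8, 9 and 12 in Buffer-only libraries, which overlap (exact permutation p = 0.3). With 100 pg the sites outside copies numbered 19, 19 and 22 in RBFOX2, 15 in Enzyme-only and 13, 18 and 11 in Buffer-only libraries, which do not overlap (exact permutation p = 0.1). Past protein-coding ends 0 to 4 sites per library lay in a copy. Over all downstream sites without those in copies, the counts at 1 ng were 173, 234 and 208 in RBFOX2, 214 in Enzyme-only and 80, 128 and 122 in Buffer-only libraries, 1.86-fold higher with RBFOX2 and still apart (exact permutation p = 0.1). At 100 pg they were 171, 197 and 178 in RBFOX2, 147 in Enzyme-only and 149, 145 and 113 in Buffer-only libraries, 1.34-fold higher with RBFOX2.

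The copies matched annotated transcripts closely. Of all positions outside genes, 697 lay in a copy, and the best matching transcript has C at 680 of them, T at 14 and another base at 3. Downstream, 498 positions lay past 180 gene ends and matched transcripts of 172 genes, at a median identity of 99.02%. SET, a histone chaperone and inhibitor of protein phosphatase 2A, was the parent of 38 sites over all libraries and FAM27C of 22. NUDT4, a hydrolase of diphosphoinositol polyphosphates, was the parent of 21 and RPL41, a ribosomal protein, of 19. DDX11, SRGAP2B, DNAJB6, a co-chaperone, and EEF1A1, a translation elongation factor, were the parents of 16 each. Sites in copies had deeper coverage, with medians of 20, 22 and 23 reads in RBFOX2, 18.5 in Enzyme-only and 14, 14.5 and 12 in Buffer-only libraries at 1 ng. Outside copies the medians were 7 to 9 reads in RBFOX2, 8.5 in Enzyme-only and 8 to 9.5 in Buffer-only libraries. Reads from a near-identical parent mRNA and reads from the copy cannot be told apart in these files, so values past NUDT4P2, SETP14 and the like are uncertain as to their source.

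**Figure D4:**
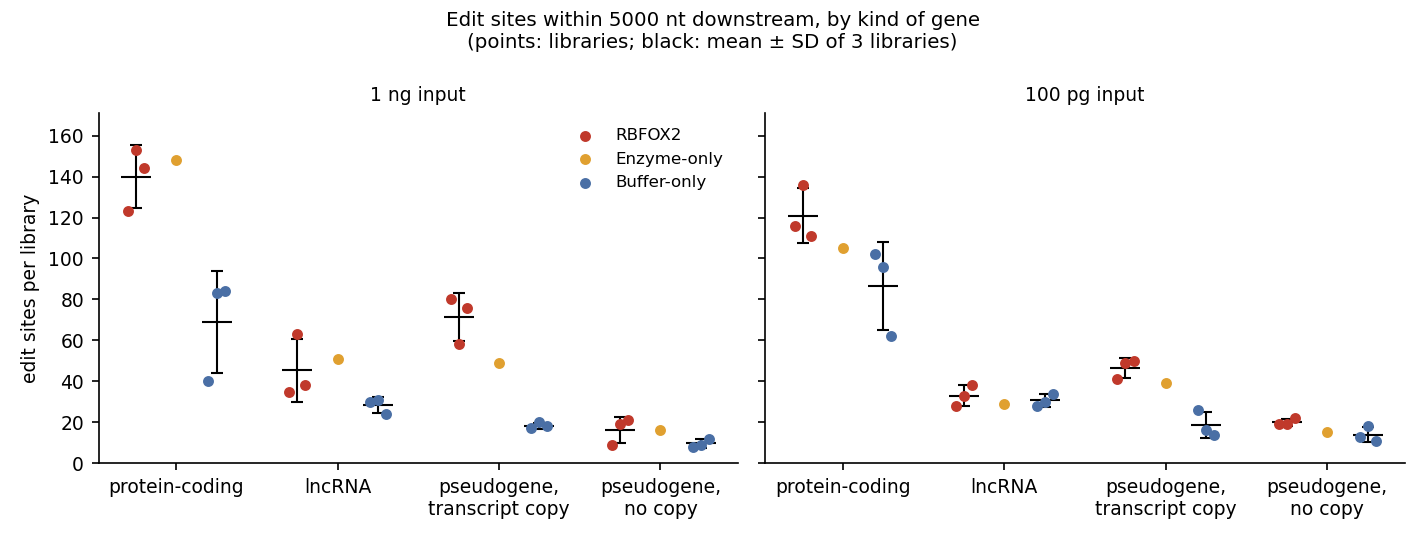
Edit sites per library within 5000 nt downstream (y axis) by the kind of gene whose end lies upstream (x axis), with pseudogene ends split by whether the site lies in a copy of an annotated transcript. Each point is 1 library, and bars give the mean ± SD of 3. In copies past pseudogene ends RBFOX2 libraries held 58 to 80 sites at 1 ng, against 17 to 20 in Buffer-only libraries.

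Few gene ends gathered many sites. Over both inputs, 1381 gene ends had a downstream site, 749 of them at 1 ng and 927 at 100 pg, and 888 had a single site over all libraries. The ends named here are those with the most sites summed over the 7 libraries of an input, whichever group they came from. RBFOX2 libraries hold more sites, so this choice partly sets which group leads past the named ends, and their values are a description with no test.

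ZC3HAV1L, the protein-coding gene with the most downstream sites at 1 ng, had 3, 7 and 8 in RBFOX2, 2 in Enzyme-only and 1, 1 and 1 in Buffer-only libraries at 1 ng. The RBFOX2 libraries lay above the others. Over both inputs its sites fell at 27 positions from 1535 to 4179 nt past the end, none in a copy, and 4 of 29 lay near UGCAUG. At 100 pg it had 1, 2 and 0 in RBFOX2, none in Enzyme-only and 0, 1 and 2 in Buffer-only libraries, so the excess was not seen there. Within the gene itself only 1 gene-strand site was called at 1 ng. ZNF714 had 2, 2 and 4 in RBFOX2, 2 in Enzyme-only and 0, 0 and 1 in Buffer-only libraries at 1 ng, with 48 gene-strand sites inside the gene at that input. Over both inputs its downstream sites lay from 546 to 1196 nt past the end, 12 of 13 after A or U.

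SRGAP2D, an unprocessed pseudogene of the SRGAP2 family, whose parent codes for a GTPase-activating protein that acts on neuronal shape, had 7, 5 and 6 in RBFOX2, 3 in Enzyme-only and 0, 1 and 1 in Buffer-only libraries at 1 ng. All 30 of its sites over both inputs lay in sequence that matches SRGAP2 or SRGAP2B transcripts. NUDT4P2 had 5, 3 and 9 in RBFOX2, 1 in Enzyme-only and none in Buffer-only libraries at 1 ng, and 5 of its 22 sites over both inputs lay near UGCAUG. At 100 pg SRGAP2D had 4, 1 and 2 in RBFOX2 and none in any other library, while NUDT4P2 had 0, 3 and 0 in RBFOX2, none in Enzyme-only and 1, 0 and 0 in Buffer-only libraries, which overlap. The C that directly precedes UGCAUG in the sequence shown above was edited in 2 of 65 reads in RBFOX2 replicate 1 at 1 ng and in 4 of 42 reads in RBFOX2 replicate 2 at 100 pg, and was called in no other library.

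DNAJB6P1 had 2, 4 and 5 in RBFOX2, 2 in Enzyme-only and 0, 1 and 0 in Buffer-only libraries at 1 ng, with a median coverage of 172 reads over the sites of both inputs. NUS1P1, copied from NUS1, which codes for a subunit of the enzyme that makes dolichol precursors, had 3, 4 and 4 in RBFOX2, 1 in Enzyme-only and none in Buffer-only libraries at 1 ng. SETP14 was among the leading ends at both inputs, with 3, 2 and 4 in RBFOX2, 3 in Enzyme-only and 0, 0 and 1 in Buffer-only libraries at 1 ng, and 3, 4 and 4 in RBFOX2, 3 in Enzyme-only and 2, 1 and 2 in Buffer-only libraries at 100 pg. The order of the groups seen past DNAJB6P1 and NUS1P1 at 1 ng was not seen at 100 pg, where DNAJB6P1 had 0, 0 and 1 in RBFOX2, none in Enzyme-only and 1, 0 and 0 in Buffer-only libraries, and NUS1P1 had 1, 0 and 0 in RBFOX2, none in Enzyme-only and 0, 0 and 1 in Buffer-only libraries. The SETP14 position shown above was called in 8 libraries, 4 with RBFOX2 and 4 with Buffer-only, and was edited in 50 of 2512 reads in those libraries.

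Not every end leaned towards RBFOX2. The lncRNA gene ENSG00000278996 had 2, 1 and 5 in RBFOX2, 4 in Enzyme-only and 5, 6 and 3 in Buffer-only libraries at 1 ng, and the lncRNA gene ENSG00000239407 had 1, 3 and 2 in RBFOX2, 3 in Enzyme-only and 3, 0 and 1 in Buffer-only libraries. Both overlapped between groups. Past AMZ2P1, 9 of the 11 sites at 1 ng came from RBFOX2 replicate 2 alone, with 0 and 1 in the other RBFOX2 libraries, 0 in Enzyme-only and 1, 0 and 0 in Buffer-only libraries. Past FUT10, of the fucosyltransferase family, the Enzyme-only library held 9 of the 10 sites at 100 pg, beside 0, 0 and 1 in RBFOX2 and none in Buffer-only libraries, so in both a single library set the count.

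At 100 pg, COX6A1P2, copied from a subunit of cytochrome c oxidase, had 4, 4 and 1 in RBFOX2, none in Enzyme-only and 0, 0 and 1 in Buffer-only libraries, whereas at 1 ng it had 1, 1 and 0 in RBFOX2, 3 in Enzyme-only and 1, 2 and 2 in Buffer-only libraries. CYCSP55, copied from CYCS, which codes for cytochrome c, had 2, 1 and 4 in RBFOX2, none in Enzyme-only and 0, 0 and 1 in Buffer-only libraries, with a median coverage of 486 reads over the sites of both inputs. RPL41P1 had 2, 4 and 1 in RBFOX2, none in Enzyme-only and 1, 0 and 0 in Buffer-only libraries. In each the lowest RBFOX2 library equalled the highest Buffer-only library at 100 pg. ENSG00000264063, a miRNA gene, had 4, 4 and 2 in RBFOX2, 1 in Enzyme-only and 0, 1 and 1 in Buffer-only libraries at 1 ng, with RBFOX2 above Buffer-only, and 1, 4 and 3 in RBFOX2, none in Enzyme-only and 3, 1 and 3 in Buffer-only libraries at 100 pg, which overlap. ENSG00000278001, a pseudogene whose downstream sequence matches FAM27C, had 2, 0 and 3 in RBFOX2, 1 in Enzyme-only and 1, 2 and 2 in Buffer-only libraries at 1 ng, which overlap.

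**Figure D5:**
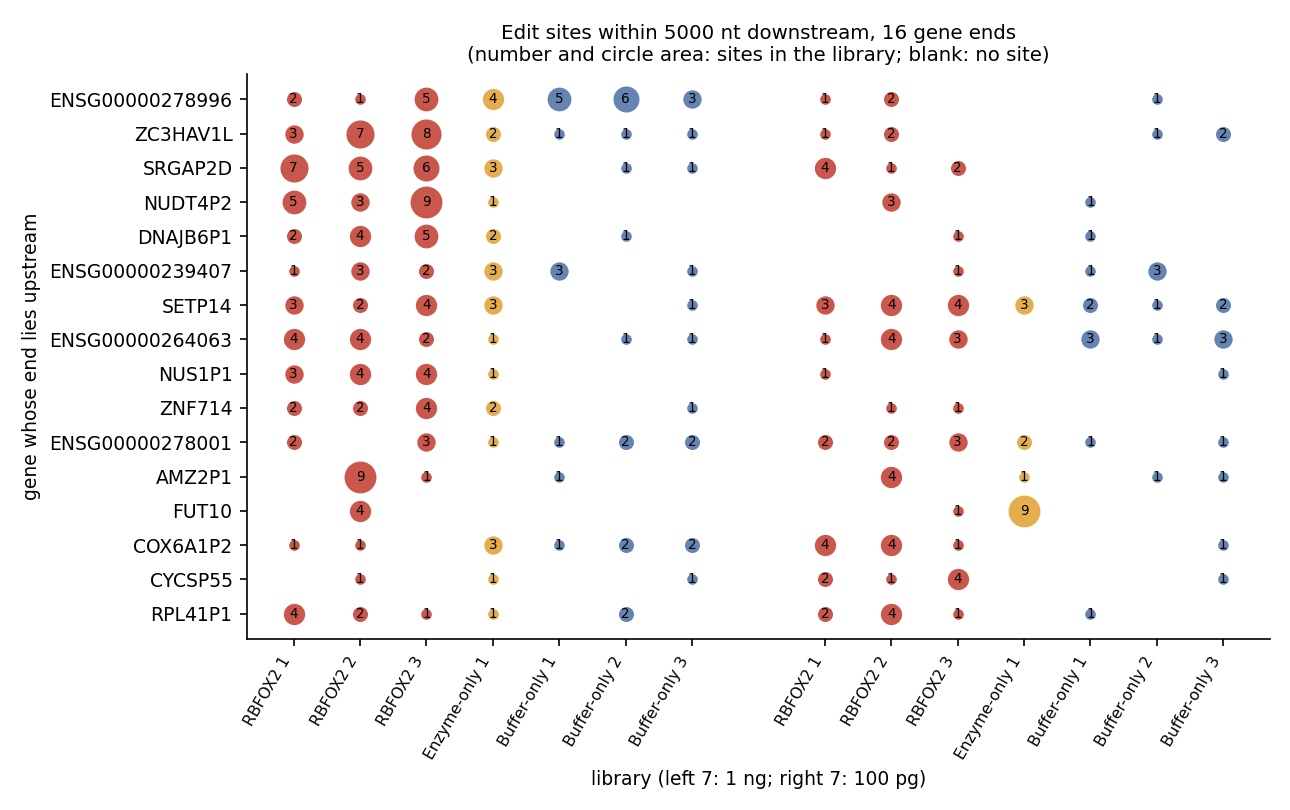
Edit sites past the 16 gene ends with the most sites (y axis) in each library (x axis, 1 ng on the left and 100 pg on the right). The number and the area of a circle give the sites in that library, and a blank means no site. SRGAP2D, NUDT4P2 and NUS1P1 had 3 to 9 sites in each RBFOX2 library at 1 ng and 0 or 1 in each Buffer-only library, while single libraries held most sites past AMZ2P1 and FUT10.

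Over all libraries, 1381 of the 62062 annotated genes (2.23%) and 845 of the 19970 protein-coding genes (4.23%) had a downstream site. Of 94 histone genes, whose mRNAs mostly end in a stem-loop and not in a poly(A) tail, 2 had a downstream site in any library, H1-5 and H2BC17. Of 2872 small nuclear and nucleolar RNA genes 15 had one, and of 60 splicing factor genes 5 had one: HNRNPC, HNRNPDL, HNRNPLL, SRSF3 and SRSF7. Whether these shares differ from that of all genes was not tested. The splicing factor genes had 347, 393 and 364 gene-strand sites in RBFOX2, 280 in Enzyme-only and 97, 74 and 95 in Buffer-only libraries at 1 ng. Past their ends they had 0, 1 and 0 in RBFOX2, 2 in Enzyme-only and none in Buffer-only libraries. NUCKS1, one of the genes shown as examples in the publication, had 0, 0 and 2 downstream sites in RBFOX2, none in Enzyme-only and 0, 0 and 1 in Buffer-only libraries at 100 pg, and none at 1 ng.

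In the rest, sites were joined into loci where they lay within 1000 nt on a strand, which gave 1807 loci with sites at 1 ng and 2854 at 100 pg. The locus with the most sites, chr21:9039500-9043021 on the plus strand, had 6, 7 and 7 in RBFOX2, 9 in Enzyme-only and 7, 5 and 11 in Buffer-only libraries at 1 ng. The locus at chr2:97272584-97278941 on the minus strand had 6, 4 and 7 in RBFOX2, 7 in Enzyme-only and 6, 8 and 4 in Buffer-only libraries, and the one at chr21:6732538-6734899 on the minus strand had 5, 8 and 6 in RBFOX2, 4 in Enzyme-only and 6, 4 and 4 in Buffer-only libraries. All 3 overlapped between groups. At chr4:49709352-49709424 on the minus strand, a run of 8 positions in which all 42 calls of both inputs followed A or U, there were 3, 4 and 4 in RBFOX2, 5 in Enzyme-only and 1, 3 and 2 in Buffer-only libraries at 1 ng, where the lowest RBFOX2 library equalled the highest Buffer-only one. The loci at chr1:224012029-224014925, minus strand, with 1, 4 and 2 in RBFOX2, 3 in Enzyme-only and 3, 2 and 8 in Buffer-only libraries at 1 ng, and chr2:94218109-94221734, minus strand, with 4, 4 and 2 in RBFOX2, 3 in Enzyme-only and 3, 2 and 2 in Buffer-only libraries at 100 pg, overlapped too.

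Positions recurred seldom. Of the 8524 positions, 8173 were called in 1 library and 351 in more. At 1 ng, 43 positions were called in all 3 RBFOX2 libraries and 37 in all 3 Buffer-only libraries, and at 100 pg 15 and 14 were. Positions in at least 2 RBFOX2 libraries and no Buffer-only library numbered 25 at 1 ng, 9 of them downstream, against 17 in at least 2 Buffer-only libraries and no RBFOX2 library, 3 of them downstream. At 100 pg these numbers were 18, with 8 downstream, against 7, with 1 downstream. These are counts over groups with no replicate of their own, and site numbers were not matched between groups. RBFOX2 libraries held more sites outside genes (742 against 511 on average at 1 ng, 780 against 671 at 100 pg). They also held more downstream (282 against 131 and 235 against 159). Of all positions outside genes, 1398 of 4004 were downstream at 1 ng and 1315 of 4761 at 100 pg.

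The 3 positions shown that were called in all 14 libraries were edited in Buffer-only libraries as well. At the chr21 plus-strand position shown above, chr21:9042866, 466 of 984 reads were edited over all libraries (47.4%), with 112 of 203 in RBFOX2, 42 of 78 in Enzyme-only and 87 of 211 in Buffer-only libraries at 1 ng. At chr5:14651646, 295 nt from EEF1A1P13 on the other strand, 230 of 1903 reads were edited, with 45 of 356 in RBFOX2, 17 of 142 in Enzyme-only and 61 of 424 in Buffer-only libraries at 1 ng. At chr14:98972824, 55 nt from RPL3P4 on the other strand, 150 of 1268 reads were edited, with 31 of 249 in RBFOX2, 13 of 76 in Enzyme-only and 27 of 279 in Buffer-only libraries at 1 ng. The edited C at chr5 and chr14 ends a run of T in the sequences shown. The position called in RBFOX2 libraries only, chr21:6733038, was edited in 4 of 52, 1 of 48 and 2 of 38 reads at 1 ng and in 1 of 32 reads of 1 RBFOX2 library at 100 pg, and the chr7 position near the motif in 2 of 6 and 4 of 6 reads.

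Across features, edgeR's quasi-likelihood test compared RBFOX2 with Buffer-only on the number of sites, with genes, gene ends and loci fitted together. At 1 ng it tested 2253 features and called 29 higher (1.29%) and 15 lower (0.666%) at a Benjamini-Hochberg adjusted p under 0.05. Of these features 2 were gene ends and 7 were loci outside genes, and 0 of the 9 were called in either direction. Before adjustment 4 of them passed 0.05, all lower in RBFOX2, and DESeq2 also called 0. Their median log2 fold change was −1.45, against 0.26 over all features tested. Without scaling it was −0.20, with 1 of the 9 higher and 0 lower before adjustment, and without a filter the median over 2173 tested gene ends and loci was 1.62. The filter scales counts to library size, so fewer sites suffice in a Buffer-only library than in an RBFOX2 library. The chr5:14651646 locus passed it with 2 sites in every library. NUDT4P2, with 5, 3 and 9 in RBFOX2 and none in Buffer-only libraries, did not. The median of the 9 and their lower values thus depend on filter and scaling and give no direction for sites outside genes. At 100 pg it tested 764 features and called 1 higher (0.131%) and 0 lower (0%; 0 by DESeq2 as well), and of 1 gene end and 4 loci outside genes it called 0, while 1 passed 0.05 before adjustment, lower in RBFOX2. Only 9 and 5 of the gene ends and loci with sites passed the filter, so the main fit could not detect a difference in the others at this depth.

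The 2 tested gene ends at 1 ng lay on opposite sides. Values after ± in this paragraph are an approximate SE, the absolute log2 fold change divided by the square root of the test's F statistic. SRGAP2D had a log2 fold change of 1.76 ± 0.85 (edgeR adjusted p = 0.303) and ENSG00000278996 one of −2.04 ± 0.65 (edgeR adjusted p = 0.104). These are relative to the scaling between libraries: without scaling, the median over all features moved to 1.5 and SRGAP2D was called higher, at a log2 fold change of 2.95 (edgeR adjusted p = 0.0144, where the alternatives ran up to 0.552). The locus chr21:9039500-9043021 had a log2 fold change of −1.48 ± 0.43 (edgeR adjusted p = 0.0765) and was called lower without RBFOX2 replicate 1 (edgeR adjusted p = 0.0488, where the alternatives ran up to 0.698).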

How the data were processed

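C-to-U edits were measured by single-end sequencing of 100 nt in 14 libraries. The authors trimmed reads (cutadapt), removed reads matching RepBase, used STAR for alignment to hg38 (processing notes by the submitters: version 2.4.0) and called sites with SAILOR, removing dbSNP variants. The deposited site files give a SAILOR score per site (kept above 0.5), counts of edited reads and of all reads, and the edit fraction (kept below 0.8). The lowest coverage in them was 5 reads. Clusters in the deposited FLARE output (false discovery rate 0.1, sites merged within 15 nt) carry counts, an edit fraction and mean depth as a coverage signal. The authors also intersected the clusters of 3 replicates.

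Sites were placed on Gencode 44 spans, while the authors annotated with Gencode 29. In all, 8572 site calls on other chromosomes or contigs were left out. Copies were sought with blastn 2.17.0. Group values are means over libraries with exact two-sided permutation tests of 3 against 3 libraries, and the single Enzyme-only library enters no test. Site counts per gene (gene strand), gene end (downstream) and locus were fitted across all features with edgeR 4.0.16 (limma 3.58.1, R 4.3.3, TMM), with DESeq2 1.42.0 as an alternative. Features were kept by edgeR's expression filter with a minimum count of 3 and 5 sites in total. The minimum count is scaled to library size, so it is not 3 sites in each library. The edgeR step was tested on simulated data. Replicate numbers did not pair: correlations of same-numbered deviations were −0.04 to 0.00. Named gene ends and loci were the 10 and 5 with the most sites per input (12 and 5 at 1 ng, 7 and 5 at 100 pg, as ties were kept up to 12 and 7 and otherwise left out), with the genes shown by the study and positions in all 3 RBFOX2 libraries alone or in all 14. The members, lists and rules were chosen with earlier results of these data known. One gene named by these rules is not reported here.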

Additional observations from a re-analysis of the deposited data

How the results depend on the processing

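Of 114 results, settings other than leaving out a library gave the same direction and side of the threshold 890 times, turned the sign 37 times and moved a count 1 time, and leaving out a library did so 694, 13 and 1 times. An exact test of 3 against 3 cannot pass 0.05, so these concern directions and not calls, and the cause of each change was not tested. The downstream count, its A or U share and the downstream share of sites outside genes kept their direction in every setting run (47.3 to 262 downstream sites more in RBFOX2 than in Buffer-only at 1 ng, 41.7 to 319.7 at 100 pg, the highest values being counts of edited reads). The values that changed sign are given as RBFOX2 minus Buffer-only.

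Percent of all sites downstream became −0.0073 with a window of 10000 nt, −0.011 with protein-coding and lncRNA genes alone, −0.062 at a SAILOR score of 0.99 or more and −0.015 without transcript copies at 1 ng, and −0.011 with protein-coding and lncRNA genes alone at 100 pg. Percent near UGCAUG at coverage of 10 or more became −0.65 downstream and −0.062 in the rest at 100 pg. Median coverage downstream became −1 at the score of 0.99 and −0.83 without copies at 1 ng. Median edit percent downstream became 2.18 with protein-coding and lncRNA genes alone and 1.59 without copies at 1 ng. At 100 pg it became 0.16 and 0.83 with windows of 2000 and 10000 nt, 0.57 with protein-coding and lncRNA genes alone, 0.43 at coverage of 10, 3.38 at the score of 0.99, 0.46 without positions of 2 or more Buffer-only libraries and 1.52 without copies. Median edit percent in the rest became −1.19 with protein-coding and lncRNA genes alone at 1 ng and −0.29 at the score of 0.99 at 100 pg. The A or U share past pseudogene ends became −0.45 without copies at 1 ng.

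On the opposite strand past gene ends, sites at 100 pg became −2 with a window of 2000 nt and −2.33 at coverage of 10. The A or U share there became −3.62 at the score of 0.99 and −2.50 in edited reads at 1 ng, and −0.032 with the window of 2000 nt and −3.02 at the score at 100 pg. The opposite-strand bin of 0 to 500 nt became 3 at the score and 6.33 in edited reads at 100 pg, and that of 1000 to 2000 nt became −1 at the score, −2.67 in edited reads and −1.33 without copies at 1 ng, and 2.33 in edited reads at 100 pg. Sites past pseudogene ends in no copy became −1 at the score at 1 ng, and clusters in the rest −0.33 at a FLARE score of 0.99. The 1 ng minus 100 pg difference became −57.7 downstream and −17.7 in the rest in edited reads.

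Leaving out 1 library gave −2.50 to 9 opposite-strand sites at 100 pg, −0.82 to 0.43 in median edit percent downstream at 100 pg, −0.36 to 0.43 in the rest at 1 ng, −0.068 to 3.36 in the opposite-strand A or U share at 100 pg, −1.17 to 3 sites in the opposite-strand bin of 1000 to 2000 nt at 1 ng, −0.17 to 4.83 sites past lncRNA ends at 100 pg, and 0 to 1 gene ends or loci called lower at 1 ng. Without scaling 1 was called higher. Over all features at 1 ng, edgeR called 29 higher and 15 lower, against 902 and 6 without scaling, 134 and 1 without a filter, 13 and 12 with the default filter, 1 and 0 with DESeq2, 0 and 0 with the replicate block and 0 to 69 and 0 to 15 with a library left out, where each Buffer-only library left out gave 0. At 100 pg, with 1 called higher, no scaling gave 96 and no filter 7. The replicate block left the downstream differences at 150.7 and 76.0 sites (exact sign-flip p = 0.25, the smallest possible) and changed no call outside genes. The transcript copies were an alternative chosen after seeing the data. The share of sites in repeats was planned and not run, as the reference used here does not mark repeats.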
